A study of Mus musculus with 21 samples.

Results

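Skeletal muscle genes were followed in dorsal root ganglia of mice, the paired knots of sensory nerve cells next to the spine, by bulk RNA sequencing. The set comprised 38 of the 24381 genes shared by the deposited count tables, listed by name as genes of the contractile apparatus, the calcium store and the energy supply of skeletal muscle fibres. The list was selected on the CPM of muscle genes in these libraries and on their difference between con/ko cKO and flox libraries, so those values are given as a description. The mice carried a floxed Tmem45b gene together with Cre recombinase driven from Mrgprd (Tmem45b-flox::Mrgprd-cre, here cKO) or the floxed gene alone (Tmem45b-flox, here flox). Mrgprd marks a class of nonpeptidergic nociceptors, and the labels do not say in which cells of the ganglion Tmem45b was lost. The con/ko name set held 4 cKO and 3 flox libraries from untreated mice, the LDRG name set 3 cKO and 3 flox libraries from untreated mice, and the CFA set 4 cKO and 4 flox libraries from mice of a CFA model. The labels leave CFA unexplained; it commonly stands for complete Freund's adjuvant, an emulsion that provokes inflammation. Strain and age were not given in the sources used here, nor was it said whether each library came from its own animal. The p-values therefore rest on the spread among libraries, which may be in part technical.

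The contractile unit of a muscle fibre, the sarcomere, is built from actin thin filaments with their troponin and tropomyosin switch, and myosin thick filaments, held between Z-discs by titin. Calcium released from the sarcoplasmic reticulum through the ryanodine receptor starts contraction, and a calcium pump ends it. Fibres differ in speed: slow fibres use the heavy chain gene Myh7 and hold much myoglobin, and fast fibres use Myh2, Myh1 or Myh4, the last being the fastest and the least oxidative. Sarcomeres are not part of sensory neurons or their glia.

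The stretch of DNA before the start of 30 of the 38 genes could be read from RefSeq promoter sequences (GRCm38.p6), 250 bases upstream of the 5'-most start that table lists for each gene. For some genes, Ckm among them, that start lies inside the gene position given here from GENCODE. The other genes were Neb, Tnnt3, Tnni2, Actn3, Myoz1, Tcap, Jph1 and Srl. Motifs bound by muscle transcription factors were searched on both strands. The E-box CANNTG, bound by the MyoD family, was found in 27 of 30 (90.0%), and in 66.1% of all 26794 promoters. Its form CAGCTG, which every time also counts as a CANNTG, was found in 15 of 30 (50.0%), against 12.8% of all promoters. The MEF2 site was found in 7 of 30 (23.3%), against 2.93%, and the CArG box, bound by serum response factor, in 3 of 30 (10%), against 1.42%. These are matches of letters and were not tested as binding sites. Sequences of 4 genes that follow below are shown, with the motifs in capitals, because they stand for actin, for energy supply, and for the fastest and the slow heavy chain: Acta1 (chr8:123894776-123895025, minus strand), Ckm (chr7:19410844-19411093, plus), Myh4 (chr11:67237562-67237811, plus) and Myh7 (chr14:54994627-54994876, minus), each 5' to 3'.
Acta1: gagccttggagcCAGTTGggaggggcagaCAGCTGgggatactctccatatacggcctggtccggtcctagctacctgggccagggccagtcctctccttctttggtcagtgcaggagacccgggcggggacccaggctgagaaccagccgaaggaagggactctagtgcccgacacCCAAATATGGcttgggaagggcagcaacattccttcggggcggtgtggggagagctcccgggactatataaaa
Ckm: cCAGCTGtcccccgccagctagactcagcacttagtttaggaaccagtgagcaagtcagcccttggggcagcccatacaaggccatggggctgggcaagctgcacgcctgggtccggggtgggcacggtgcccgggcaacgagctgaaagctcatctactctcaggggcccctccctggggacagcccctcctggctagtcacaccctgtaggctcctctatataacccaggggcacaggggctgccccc
Myh4: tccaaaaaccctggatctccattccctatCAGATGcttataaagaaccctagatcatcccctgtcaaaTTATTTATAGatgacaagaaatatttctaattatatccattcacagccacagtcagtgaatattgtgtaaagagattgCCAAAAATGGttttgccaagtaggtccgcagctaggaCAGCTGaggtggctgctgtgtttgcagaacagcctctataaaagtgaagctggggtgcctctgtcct
Myh7: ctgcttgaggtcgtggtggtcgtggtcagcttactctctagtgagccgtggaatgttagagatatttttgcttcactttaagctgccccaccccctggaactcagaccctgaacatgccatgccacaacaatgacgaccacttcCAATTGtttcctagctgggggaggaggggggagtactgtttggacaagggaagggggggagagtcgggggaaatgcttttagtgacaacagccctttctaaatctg
Myh4 held both E-box forms, a MEF2 site and a CArG box, and Acta1 both E-box forms and a CArG box. Ckm held 1 E-box, of the CAGCTG form, and Myh7 held 1 E-box of another form and none of the other motifs.

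Libraries held between 53364389 and 72502294 counts. Levels are given as CPM, counts scaled to a TMM-adjusted library size. Markers of sensory neurons were high in every group, with 8 genes that summed to between 6169 and 8426 CPM, so the labelled tissue held its defining transcripts. Tmem45b, which checks the genotype labels, stood at 75.5, 89.1, 68.6 and 85.4 CPM in con/ko cKO libraries 4 to 7, against 148, 179 and 156 CPM in con/ko flox libraries 4 to 6. It stood at 67.7, 72.2 and 59.9 CPM in LDRG cKO libraries, against 124, 132 and 145 CPM in LDRG flox libraries. In the CFA set the labels and Tmem45b did not go together, with 108, 105, 67.6 and 61.8 CPM in libraries labelled cKO and 65.9, 116, 136 and 80.2 CPM in libraries labelled flox, so those libraries are called by their labels only. Name sets also differed beyond genotype: red blood cell genes summed to between 1588 and 4317 CPM in con/ko, 207 and 620 CPM in CFA, and 33.7 and 53.8 CPM in LDRG libraries. Xist, expressed from the inactive X chromosome, was above 1 CPM in 8 of 8 CFA libraries, in 0 of 6 LDRG libraries and in 4 of 7 con/ko libraries.

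Muscle transcripts were carried by some libraries of each set and were low in the others. Summed over the 38 genes, the level was 61.1, 66.3, 65.8 and 74.1 CPM in con/ko cKO libraries 4 to 7, against 861, 1042 and 1653 CPM in con/ko flox libraries 4 to 6. In the LDRG set it was 1030, 56.0 and 60.4 CPM in cKO libraries 1 to 3, against 160, 141 and 353 CPM in flox libraries 1 to 3. In the CFA set it was 92.7, 64.8, 58.1 and 52.4 CPM in libraries labelled cKO, against 242, 58.8, 58.3 and 59.3 CPM in libraries labelled flox. The con/ko flox libraries lay above every con/ko cKO library, while the highest LDRG library was a cKO library and the highest CFA library was labelled flox. In bulk tissue, fewer muscle fibres and less RNA per fibre cannot be told apart.

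**Figure D1:**
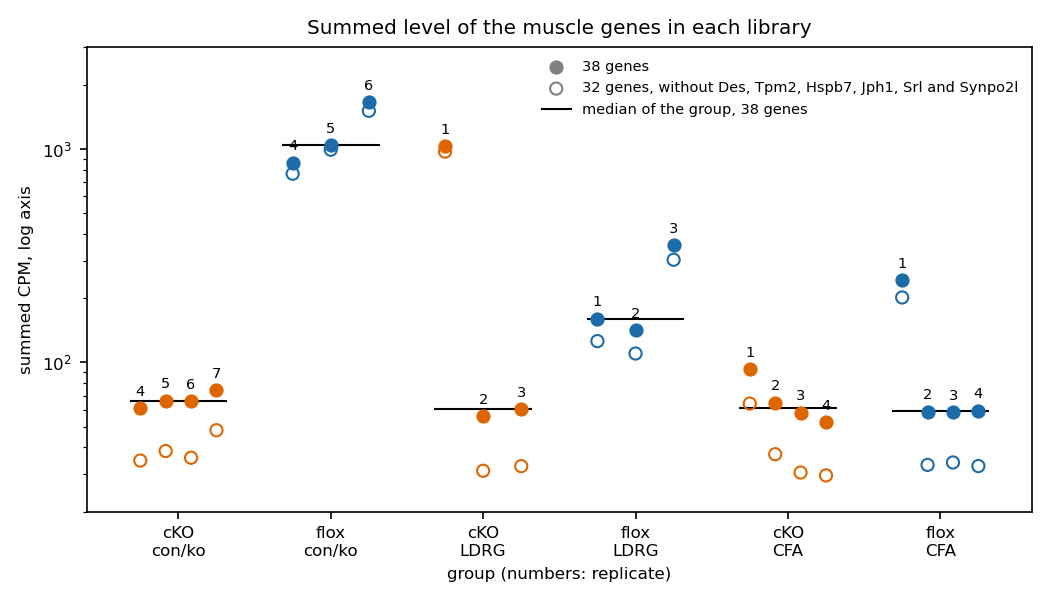
Summed level of the muscle genes in each library, in CPM on a log axis, for the 6 groups, with cKO in orange and flox in blue. Filled points are sums over 38 genes, open points sums over 32 genes, numbers are replicates and lines are group medians; the LDRG cKO library 1 lies at 1030 CPM and the con/ko flox libraries at 861 to 1653 CPM.

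The spread within the LDRG cKO group was as wide as the spread between groups. LDRG cKO library 1 lay 18.4 times above the lowest library of its set, and con/ko flox library 6 lay 27.1 times above the lowest of its own. In the CFA set the highest library lay 4.63 times above the lowest. Group means were 66.8 ± 5.42 CPM in con/ko cKO (SD, n = 4) and 1185 ± 415 CPM in con/ko flox libraries (SD, n = 3). They were 382 ± 561 CPM in LDRG cKO and 218 ± 118 CPM in LDRG flox libraries (SD, n = 3 each), and the LDRG cKO mean was 58.2 CPM without library 1. They were 67.0 ± 17.9 CPM in CFA libraries labelled cKO and 105 ± 91.8 CPM in CFA libraries labelled flox (SD, n = 4 each), and the CFA flox mean was 58.8 CPM without library 1. The 38 genes made up 0.0049% of the counts of CFA cKO library 4, where their share was lowest, and 0.176% of those of con/ko flox library 6, where it was highest. The con/ko names hold code letters that the labels do not define, and the codes were not spread evenly over the genotypes. Libraries coded FC had 61.1 and 66.3 CPM in cKO and 861 CPM in flox, and libraries coded ML had 74.1 CPM in cKO and 1653 CPM in flox. The library coded MC, a cKO library, had 65.8 CPM, and that coded FL, a flox library, had 1042 CPM. Within each genotype the library coded ML was the highest. The part of the codes in the level was not tested.

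The genes differed in how widely they ranged across the libraries. Between the lowest and the highest library, 22 of the 38 genes differed by 100 times or more or were at 0 counts somewhere, and 5 differed by less than 10 times. These 5 were Jph1 (1.78 times), a junctophilin that ties the cell membrane to the calcium store, Srl (2.90), sarcalumenin of the store's lumen, Myom1 (5.18), a protein of the M-line, Eno3 (5.76), the beta enolase of glycolysis, and Pgam2 (7.40), the muscle phosphoglycerate mutase. The 5 were singled out after their values were seen. Of the 38 genes, 17 were at 0 counts in at least 1 library and 21 were above 0 in all 21 libraries. Per kilobase of exon, Eno3 had the highest level of the 38 in 13 libraries, at 3.87 to 6.64 CPM per kb, Acta1 in 6 libraries, at 8.38 to 142 CPM per kb, and Tnnt3 in 2 libraries, at 9.69 and 81.9 CPM per kb. The libraries led by Eno3 included all 4 con/ko cKO libraries, and those led by Acta1 included all 3 con/ko flox libraries. The highest library of a gene was LDRG cKO library 1 for 6 genes, con/ko flox library 6 for 27, con/ko flox library 5 for 3 and con/ko flox library 4 for 2.

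**Figure D2:**
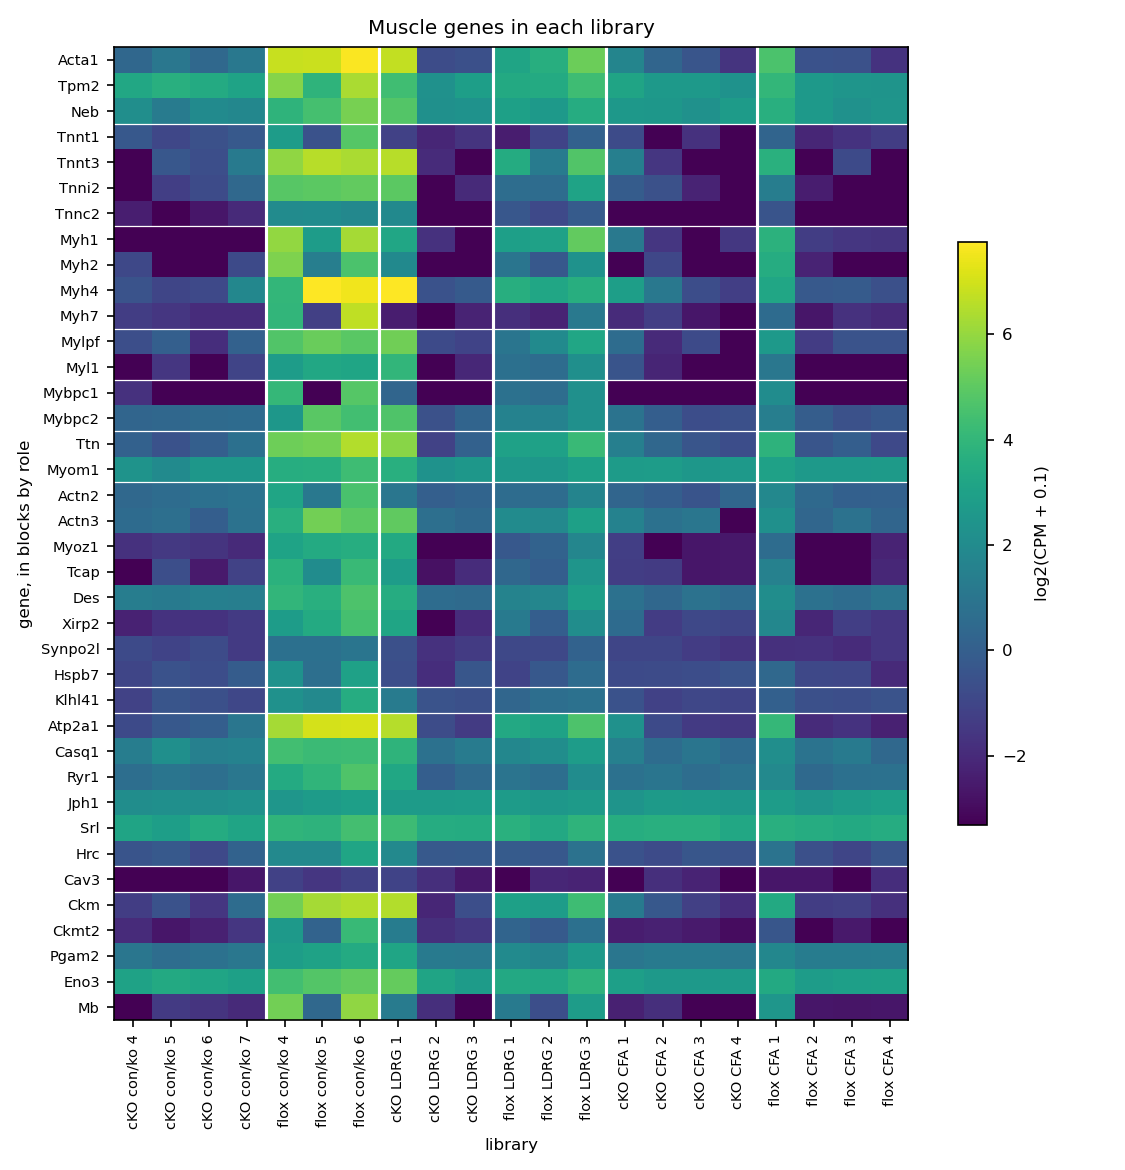
Level of each of the 38 genes (rows, in blocks by role) in each of the 21 libraries (columns), as log2(CPM + 0.1), with white lines between groups. LDRG cKO library 1 and the con/ko flox libraries are bright in most rows, while Jph1 and Srl vary little across columns.

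The heavy chains showed that the libraries did not carry the same kind of muscle RNA. Myh2, Myh1 and Myh4 lie side by side on chromosome 11 (mm10, chr11:67171027-67197517, chr11:67200052-67224575 and chr11:67238029-67260446, plus strand), and Myh7 lies on chromosome 14 (chr14:54970684-54994626, minus strand). In 9 libraries with at least 500 heavy chain counts the share of each isoform could be read, with Wilson 95% intervals that cover counting error only. In LDRG cKO library 1, Myh4 made up 94.2% of 16021 heavy chain counts (93.9 to 94.6%) and Myh7 0.0375% (0.0172 to 0.0817%). In con/ko flox library 5, Myh4 made up 95.6% of 15238 counts (95.3 to 96.0%) and Myh7 0.144% (0.0954 to 0.219%). These libraries, of opposite genotype and from different name sets, had almost only the fastest isoform.

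In con/ko flox library 4, Myh4 made up 11.2% of 9509 counts (10.6 to 11.9%), Myh1 43.6%, Myh2 34.2% and Myh7 10.9% (10.3 to 11.6%). In con/ko flox library 6, Myh4 made up 47.5% of 26809 counts (46.9 to 48.1%), Myh1 19.6%, Myh2 6.33% and Myh7 26.6% (26.0 to 27.1%). The 3 con/ko flox libraries thus had mixtures that differed beyond counting error, from almost pure Myh4 to a large share of Myh7. The LDRG flox libraries were led by Myh4 and Myh1, with Myh4 at 56.0, 51.7 and 23.2% and Myh1 at 34.5, 43.7 and 63.4% of 1533, 1269 and 3739 counts in libraries 1 to 3. Their Myh7 share was 0.848, 0.630 and 3.99%. Of the CFA libraries, cKO library 1 had 76.4% Myh4 and 22.0% Myh1 among 673 counts, and flox library 1 had 26.1% Myh4, 37.8% Myh1, 32.3% Myh2 and 3.74% Myh7 among 2487 counts. Scaling by exon length moved no share by more than 0.852 percentage points.

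**Figure D3:**
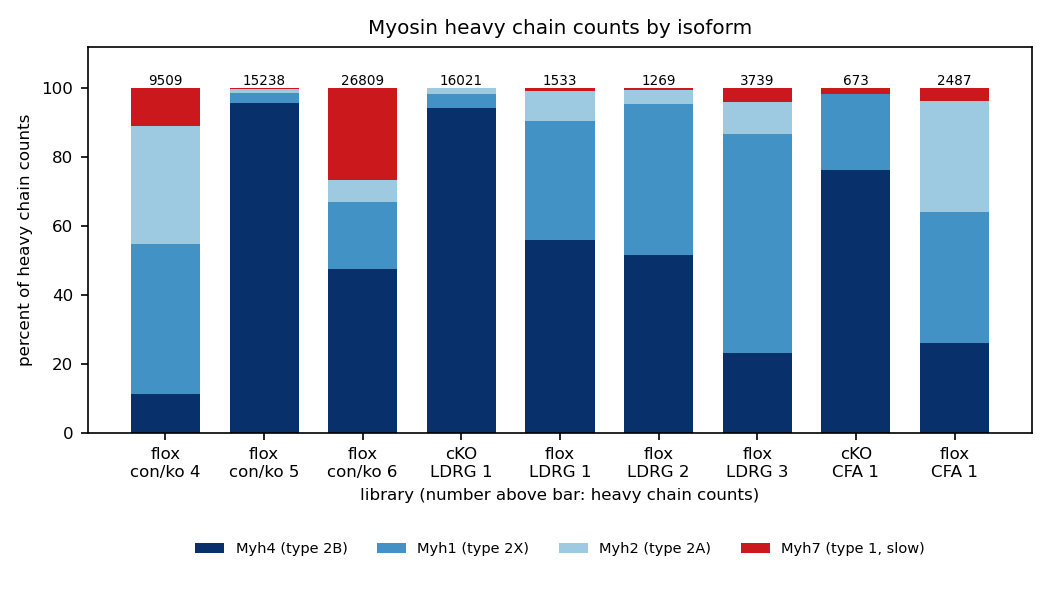
Percent of myosin heavy chain counts from Myh4, Myh1, Myh2 and Myh7 in the 9 libraries with at least 500 such counts, whose number stands above each bar. LDRG cKO library 1 and con/ko flox library 5 are over 94% Myh4, while Myh7 reaches 26.6% in con/ko flox library 6.

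Several other genes of slow or oxidative fibres were also higher in con/ko flox libraries 4 and 6 than in con/ko flox library 5 and LDRG cKO library 1, as a description without a test. Troponin T comes in a fast form, Tnnt3, and a slow form, Tnnt1, and per kilobase Tnnt3 made up 99.6% of the pair in LDRG cKO library 1 and 89.0, 99.3 and 72.4% in con/ko flox libraries 4 to 6. Mb, the oxygen store myoglobin that slow and oxidative fibres hold, stood at 2.37 CPM in LDRG cKO library 1 and at 41.7, 1.24 and 60.0 CPM in con/ko flox libraries 4 to 6. Counted against Ckm, the muscle creatine kinase, Mb gave a ratio of 0.0263 in that cKO library and ratios of 0.993, 0.0161 and 0.665 in those flox libraries. Mybpc1, the slow form of myosin binding protein C, stood at 1.12 CPM in LDRG cKO library 1 and at 16.4, 0 and 28.7 CPM in con/ko flox libraries 4 to 6. Its fast counterpart Mybpc2 stood at 26.0 CPM in that cKO library and at 5.65, 29.9 and 21.4 CPM in those flox libraries.

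Of 8 other slow-fibre genes, 7 were higher in con/ko flox libraries 4 and 6 than in both LDRG cKO library 1 and con/ko flox library 5. The exception was Atp2a2, a calcium pump that many cell types use, at 587 CPM in LDRG cKO library 1 and at 433, 457 and 487 CPM in con/ko flox libraries 4 to 6. These libraries were grouped by the heavy chain shares above, and the share of all genes in that order was not computed. Casq2, among the 7, stood at 3.51 and 6.62 CPM in con/ko flox libraries 4 and 6, and at 4.93 CPM in con/ko cKO library 5. Myl2, the slow regulatory light chain, stood at 0 in LDRG cKO library 1 and at 12.2, 0.267 and 39.1 CPM in con/ko flox libraries 4 to 6. Tnnc1, slow troponin C, stood at 0.216 CPM in LDRG cKO library 1 and at 2.82, 0.163 and 19.6 CPM in con/ko flox libraries 4 to 6. Myl2, Tnnc1 and Myh7 are also genes of heart muscle. Levels of the 8 heart muscle genes listed varied widely. Myl7 reached at most 0.0864 CPM, Nppa at most 0.946 CPM, Tnnt2 at most 0.509 CPM and Tnni3 at most 0.938 CPM in any library. Of the others, Myh6, the alpha heavy chain, ranged over 3.18 to 13 CPM, Nppb, a natriuretic peptide, over 3.05 to 10.9 CPM, Myl4, an atrial light chain, over 1.24 to 2.59 CPM and Actc1, cardiac actin, over 0 to 3.69 CPM across the 21 libraries. The list summed to between 13.9 and 20.8 CPM in con/ko cKO libraries and between 22.4 and 27.3 CPM in con/ko flox libraries. Of the 7 tested in that contrast 0 were called, 2 had an unadjusted p under 0.05 and DESeq2 called 1 lower.

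Markers of cells that make muscle ranged from near 0 to several CPM. The regulator Myod1 reached at most 0.130 CPM, Myog at most 0.193 CPM and Pax7, which marks satellite cells, at most 0.208 CPM, while Cdh15, a cadherin of muscle precursors, ranged over 5.71 to 12.2 CPM across the libraries. Myf6, which mature fibres keep, stood at 0 in all 4 con/ko cKO libraries and at 0.357, 0.430 and 0.822 CPM in con/ko flox libraries 4 to 6. Of the acetylcholine receptor subunits of the junction, Chrnd reached at most 0.115 CPM, Chrng at most 0.132 CPM and Chrne at most 0.244 CPM, while Chrna1 was above 1 CPM in every library, at most at 2.47 CPM, and Chrnb1 ranged over 2.42 to 3.97 CPM. The list of 8 junction genes summed to between 17.1 and 22.1 CPM in con/ko cKO libraries and between 19.6 and 22.4 CPM in con/ko flox libraries. The list of 7 satellite cell and myogenic genes summed to between 7.58 and 13.2 CPM in con/ko cKO libraries and between 7.31 and 10.1 CPM in con/ko flox libraries.

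Set against flox, the con/ko cKO libraries were lower for the whole set. The log2 difference was below 0 for 38 of 38 genes, with a median of -4.99, against 0.01 over all 16481 genes tested. In the fit across all genes, 19 of the 38 were called lower (edgeR quasi-likelihood test, Benjamini-Hochberg adjusted p under 0.05) and 0 higher, against 0.237% of all genes called lower and 0.00607% called higher. Every cKO library lay below every flox library for 36 of 38 genes, against 3.47% of 19678 genes. The exceptions were Tnnt1 and Mybpc1, both slow forms, which were low in con/ko flox library 5. The set was drawn up with this contrast in view, and the counts are given as a description. By another tool, DESeq2, 34 of the 38 were called lower, and without con/ko cKO library 6 edgeR called 12. The 38 genes supplied 19 of the 40 genes called in this contrast, and other muscle genes supplied a further 7. The 40 became 21 without con/ko cKO library 4, 19 without cKO library 6 and 26 without flox library 6.

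Thin filament genes varied in how far apart the groups lay. Acta1 (ENSMUSG00000031972.5, chr8:123891769-123894751), skeletal muscle actin, had 1.19, 1.99, 1.23 and 2.05 CPM in con/ko cKO libraries, against 114, 118 and 206 CPM in con/ko flox libraries. The groups did not overlap, and the mean was 90.2 times higher in flox libraries. Tpm2, beta-tropomyosin, which smooth muscle also uses, had 9.91, 12.6, 10.7 and 8.63 CPM in cKO libraries, against 53.7, 14.9 and 81.2 CPM in flox libraries. Its log2 difference was -2.26 (SE 0.48), smaller than that of Acta1 at -6.49 (SE 0.31). Flox library 5, the one with almost only Myh4, was the lowest of the flox libraries for Tpm2.

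The troponin genes varied in this as well. Tnnt3 (chr7:142498836-142516009) had 0, 0.704, 0.529 and 2.23 CPM in con/ko cKO libraries, against 60.6, 95.0 and 81.0 CPM in con/ko flox libraries. Tnnt1 had 0.731, 0.419, 0.573 and 0.759 CPM in cKO libraries, against 6.94, 0.593 and 28.5 CPM in flox libraries, so that the groups overlapped. Tnni2, the fast troponin I, had a log2 difference of -5.94 (SE 0.86), and Tnnc2, the fast troponin C, of -5.67 (SE 0.71).

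Among the heavy chains, Myh1 had 0 counts in each of the 4 con/ko cKO libraries, against 61.6, 6.95 and 75.9 CPM in con/ko flox libraries. Against a limit of 3 counts over the cKO group, it was at least 4143-fold lower in cKO libraries. Myh4 had 0.606, 0.404, 0.441 and 3.44 CPM in cKO libraries, against 15.9, 216 and 184 CPM in flox libraries. Myh2 had 0.428, 0, 0 and 0.461 CPM in cKO libraries, against 48.4, 2.55 and 24.5 CPM in flox libraries. Myh7 had 0.303, 0.240, 0.162 and 0.164 CPM in cKO libraries, against 15.5, 0.326 and 103 CPM in flox libraries. The groups did not overlap for any of the 4, against 3.47% of 19678 genes with every cKO library below every flox library. For Myh7 this rested on 22 counts in flox library 5 and 17 counts in cKO library 4. By edgeR 0 of the 4 were called, against 0.237% of all genes called lower, and DESeq2 called 3 lower. The flox libraries ranged over 10 times or more for each. The fast light chains had log2 differences of -5.59 (SE 0.50) for Mylpf and -5.76 (SE 1.06) for Myl1.

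Titin, Ttn (chr2:76703980-76982547), the spring that spans the sarcomere, had 0.999, 0.599, 0.911 and 1.62 CPM in con/ko cKO libraries, against 39.7, 43.6 and 89.2 CPM in con/ko flox libraries. Of the Z-disc genes, 5 of 8 were called lower, against 0.237% of all genes. They included Myoz1, a calcineurin-binding protein of the Z-disc, with a log2 difference of -5.67 (SE 0.23), and Xirp2, an actin-binding repeat protein, with -6.06 (SE 0.49). Des, the intermediate filament desmin that smooth muscle also makes, had 2.51, 2.31, 2.69 and 2.59 CPM in cKO libraries, against 15.6, 12.6 and 25.2 CPM in flox libraries. Synpo2l, an actin-bundling protein of the Z-disc, had 0.464, 0.374, 0.470 and 0.268 CPM in cKO libraries, against 1.62, 1.63 and 1.87 CPM in flox libraries. The flox libraries of Synpo2l lay close together, unlike those of the heavy chains.

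**Figure D4:**
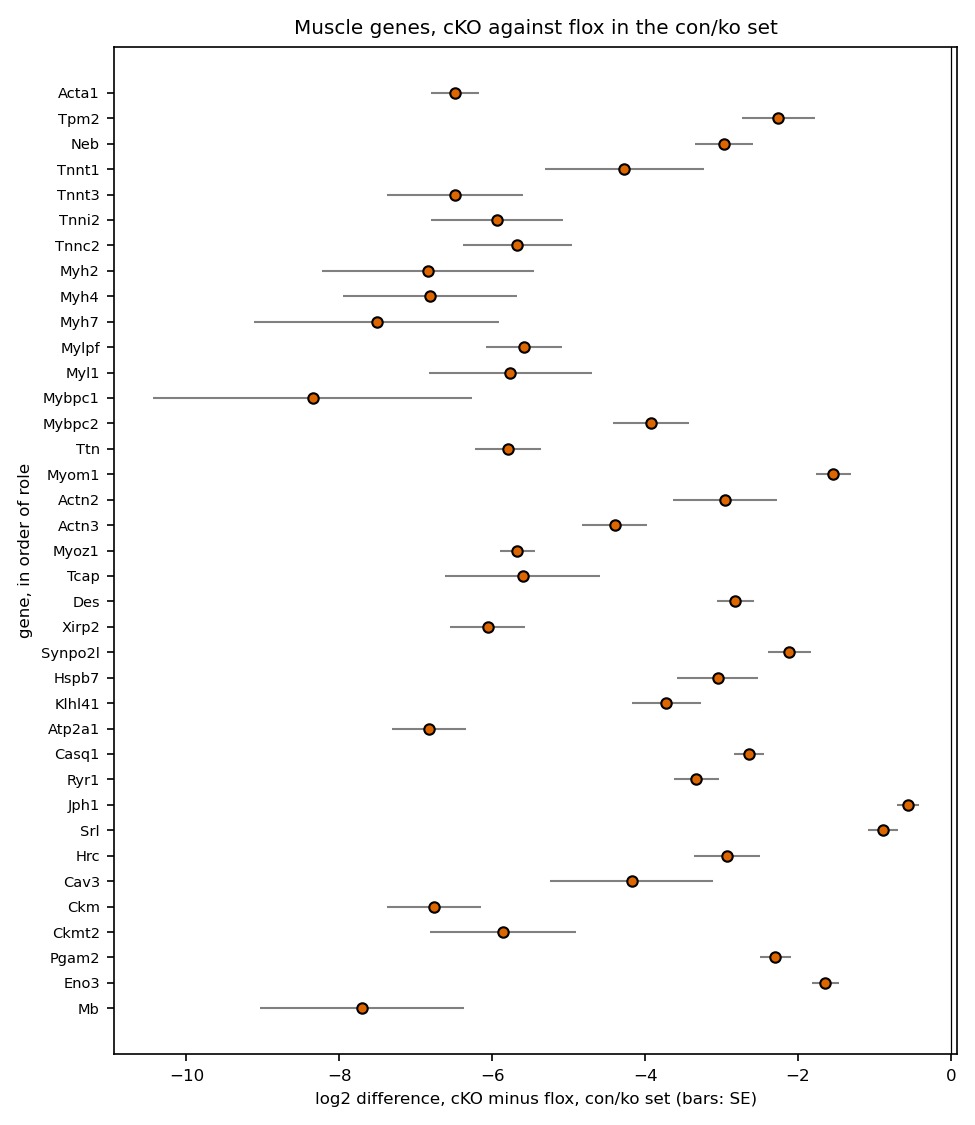
Log2 difference of 37 genes, cKO minus flox, in the con/ko set, in order of role, with bars of 1 SE, derived from the F statistic. Myh1, at 0 counts in all cKO libraries, is left out. All points lie left of 0, and Jph1 at -0.56 and Srl at -0.89 lie nearest to it.

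The calcium store held both large and small differences. Atp2a1 (chr7:126445858-126463108), the calcium pump of fast fibres, had 0.464, 0.734, 0.882 and 1.96 CPM in con/ko cKO libraries, against 77.5, 133 and 137 CPM in con/ko flox libraries, a log2 difference of -6.83 (SE 0.48). Jph1 had 4.23, 4.45, 4.41 and 4.82 CPM in cKO libraries, against 5.62, 6.67 and 7.51 CPM in flox libraries, a log2 difference of -0.56 (SE 0.14). Its groups did not overlap in this set, yet across all libraries its level followed the summed level least of the 38 genes, with a Spearman rho of 0.17 over 21 libraries. Hrc, the histidine-rich calcium-binding protein of the store, had a log2 difference of -2.93 (SE 0.43). Cav3, the caveolin of muscle membrane, reached at most 0.374 CPM in any library.

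Of the energy genes, Ckm (chr7:19404776-19422841) had 0.303, 0.599, 0.235 and 1.41 CPM in con/ko cKO libraries, against 42.0, 77.4 and 90.2 CPM in con/ko flox libraries. Mb had 0, 0.270, 0.221 and 0.149 CPM in cKO libraries, against 41.7, 1.24 and 60.0 CPM in flox libraries. Pgam2 had 1.96, 1.45, 1.66 and 2.02 CPM in cKO libraries, against 7.11, 8.30 and 10.7 CPM in flox libraries. Eno3 and Pgam2 kept levels above 1 CPM in every library, including those with the lowest summed level. Ckmt2, the mitochondrial creatine kinase of striated muscle, had a log2 difference of -5.86 (SE 0.95).

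Some muscle genes outside the 38, listed by function, were also called lower in the same contrast. Over all genes, 0.237% were called lower and 0.00607% higher, and 1088 of 16481 had an unadjusted p under 0.05. Of 17 other sarcomere genes tested, 4 were called lower and 0 higher, with a median log2 difference of -3.44. They included Trim63, a ubiquitin ligase of the sarcomere (-3.34, SE 0.31), Nrap, an actin-anchoring protein (-4.46, SE 0.49), and Ankrd23, a titin-binding ankyrin repeat protein (-2.19, SE 0.26). Of 10 other genes of excitation and calcium release, 3 were called lower and 0 higher, namely Cacna1s, the voltage sensor (-3.65, SE 0.36), Sypl2 (-3.59, SE 0.41) and Trdn, triadin (-6.66, SE 0.91). Of 10 other muscle energy genes tested, 0 were called and 4 had an unadjusted p under 0.05, with a median of -0.27, and DESeq2 called 3 lower. Of 8 other slow-fibre genes 0 were called, 6 had an unadjusted p under 0.05 and DESeq2 called 2 lower. Smooth muscle genes had 0 of 7 called by either tool and 1 with an unadjusted p under 0.05, with a median of -0.11. Of 3 satellite cell and myogenic genes tested 0 were called, 1 had an unadjusted p under 0.05 and DESeq2 called 1 lower. For junction, adipocyte, tendon and cartilage, marrow, red blood cell and spinal cord genes 0 were called, 0 had an unadjusted p under 0.05, and DESeq2 called 0.

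Several tissues around the ganglion varied as well, and their part in the levels of muscle genes was not tested. Marrow genes summed to between 10.3 and 209 CPM in con/ko cKO libraries and between 17.0 and 64.3 CPM in con/ko flox libraries. Mpo, a granule enzyme of myeloid precursors, stood at 107 CPM in con/ko cKO library 7 and at 37.4 CPM in con/ko flox library 6. Adipocyte genes summed to between 3.44 and 12.9 CPM in con/ko cKO libraries and between 9.50 and 11.7 CPM in con/ko flox libraries. Adipoq, the fat hormone adiponectin, was highest in CFA cKO library 3 at 3.47 CPM, CFA flox library 1 at 3.28 CPM and LDRG flox library 3 at 3.60 CPM. The summed muscle level was 58.1 CPM in CFA cKO library 3, 242 CPM in CFA flox library 1 and 353 CPM in LDRG flox library 3. In LDRG cKO library 1, at 1030 CPM of muscle genes, adipocyte genes summed to 1.58 CPM. They summed to 24.0 CPM in LDRG flox library 3, at 353 CPM of muscle genes. Con/ko cKO library 7 had the highest adipocyte sum of its set, at 12.9 CPM, and a muscle level of 74.1 CPM.

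In the LDRG set no gene of the 38 was called between cKO and flox libraries, and 0 of 36 tested had an unadjusted p under 0.05. DESeq2 called 0 as well. The share of all genes called was 0.0125% higher and 0.00623% lower. The median log2 difference was 0.33, with 12 of 36 genes below 0, against -0.00 over all 16050 genes. That median rested on 1 library: without LDRG cKO library 1, it was -2.41, 36 of 37 genes were below 0, and 1, Myh4, was called lower (-4.05, edgeR adjusted p = 0.0042).

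Single genes showed the same spread. Acta1 had 107, 0.497 and 0.561 CPM in LDRG cKO libraries 1 to 3, against 8.68, 12.1 and 38.5 CPM in LDRG flox libraries. The flox libraries lay between the highest cKO library and the other cKO libraries. Myh4 had 217, 0.596 and 0.776 CPM in cKO libraries, against 12.2, 9.40 and 12.4 CPM in flox libraries. Ckm had 90.2, 0.128 and 0.528 CPM in cKO libraries, against 7.74, 6.94 and 20.1 CPM in flox libraries. Atp2a1 had 92.8, 0.497 and 0.281 CPM in cKO libraries, against 10.1, 8.34 and 25.0 CPM in flox libraries, the same pattern.

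Myh1 broke from it, with 9.43, 0.199 and 0 CPM in LDRG cKO libraries, against 7.52, 7.94 and 33.8 CPM in LDRG flox libraries, so that flox library 3 was the highest. Mybpc1 had 1.12, 0 and 0 CPM in cKO libraries, against 1.66, 1.48 and 4.58 CPM in flox libraries, and was the 1 gene with every cKO library below every flox library, against 4.65% of 19193 genes. Jph1 had 6.60, 6.66 and 6.84 CPM in cKO libraries, against 6.59, 5.72 and 6.44 CPM in flox libraries, and was the 1 gene with every cKO library above, against 4.78%. Among 38 genes, 1 gene each way is no more than those shares give.

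The difference between the sets was fitted as the cKO minus flox difference in con/ko less that in LDRG libraries. It contains the con/ko difference on which the list was selected, so its values are a description and no independent test. It was below 0 for 38 of 38 genes, with a median of -5.53, against 0.00 over all 16706 genes. In the fit across all genes 0 of the 38 were called, and of all genes 0.00599% were called higher and 0 lower. An unadjusted p under 0.05 was found for 35 of the 38, and for 836 of all 16706 genes. DESeq2 called 9 of the 38, all lower. Without LDRG cKO library 1 the median was -1.48 and 0 were called by edgeR.

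In the CFA set, 28 of the 38 genes passed the filter on low counts, so the members tested are those with counts in enough libraries. Of these, 0 were called and 0 had an unadjusted p under 0.05 between libraries labelled cKO and flox, and 0 of all 16116 genes were called, 799 of them having an unadjusted p under 0.05. DESeq2 called 0 of the 38 and 19 of all genes. The median log2 difference was -0.45 and turned to 0.17 without CFA flox library 1, so 1 library set its sign.

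CFA flox library 1 stood alone in its group. Acta1 had 3.18, 1.13, 0.665 and 0.217 CPM in CFA libraries labelled cKO, against 24.5, 0.590, 0.581 and 0.206 CPM in CFA libraries labelled flox. Outside flox library 1, the ranges of Acta1 overlapped, at 0.217 to 3.18 CPM in libraries labelled cKO and 0.206 to 0.590 CPM in libraries labelled flox. Myh2 had 0, 0.416, 0 and 0 CPM in libraries labelled cKO, against 11.7, 0.115, 0 and 0 CPM in libraries labelled flox. Mybpc1 was at 0 counts in all 4 libraries labelled cKO, against 4.11, 0, 0 and 0 CPM in libraries labelled flox. Pgam2 had 1.96, 2.23, 2.24 and 2.0 CPM in libraries labelled cKO, against 3.41, 2.39, 2.40 and 2.49 CPM in libraries labelled flox, and was the 1 gene with every library labelled cKO below every library labelled flox, against 1.70% of 19638 genes. No gene of the 38 had every library labelled cKO above, against 1.37% of all genes.

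CFA libraries were set against the LDRG libraries of untreated mice from the same table, with genotype as a term. Of 37 genes tested, 5 were called lower and 0 higher, or 13.5%, against 7.86% of all 16293 genes called lower and 9.94% called higher. The median log2 difference was -1.79, with 37 of 37 genes below 0, against -0.00 over all genes. The 5 that fell were Klhl41, a kelch protein of sarcomere assembly (-1.26, SE 0.30, edgeR adjusted p = 0.0109), Ckmt2 (-3.09, SE 0.83, edgeR adjusted p = 0.0205), Mybpc2 (-2.46, SE 0.74, edgeR adjusted p = 0.0353), Pgam2 (-0.90, SE 0.29, edgeR adjusted p = 0.0439) and Casq1, calsequestrin of the fast-fibre calcium store (-1.39, SE 0.45, edgeR adjusted p = 0.0452). Pgam2 ranged over 1.96 to 3.41 CPM in CFA libraries, against 2.15 to 8.94 CPM in LDRG libraries, so the groups overlapped. Without CFA flox library 1, 22 genes were called lower, and without LDRG cKO library 1, only Klhl41 was; without both, 3 were called. Without any 1 of the other 7 CFA libraries, or without LDRG flox library 3, 2 or 3 were called.

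Treatment, name set and the Xist difference between these libraries cannot be told apart. In the same fit, 9.94% of all genes were called higher and 7.86% lower, and 5330 of 16293 had an unadjusted p under 0.05. Red blood cell genes had 5 of 5 called higher, with a median of 3.12. Of 8 sensory neuron genes 4 were called lower, with a median over the 8 of -0.13. Of 9 other muscle energy genes tested, 2 were called lower, Fbp2, a gluconeogenic enzyme of muscle (-0.56, SE 0.14), and Phkg1, a subunit of muscle phosphorylase kinase (-0.87, SE 0.26). Of 15 other sarcomere genes 0 were called, 4 had an unadjusted p under 0.05 and DESeq2 called 2 lower. Of 9 excitation and calcium release genes 0 were called by either tool and 5 had an unadjusted p under 0.05.

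Across the 21 libraries, 10 genes outside the set were most like its summed level by Spearman's rho, among 14199 with a mean of at least 1 CPM. They included Myom2 (0.94), Ube2c (0.93), Trdn (0.85), Ankrd23 (0.85), Mylf-ps (0.84), Cacna1s (0.83), Hk2 (0.80), Nrap (0.80) and Scpep1 (0.79). Of the 38 genes, 23 were at or above the value of the last of these, their median was 0.83, and the median of the other genes was 0.01. The summed level contains each of the 38 genes and none of the others, so these medians are not a like comparison. All these genes were read from the same 21 libraries and share their depth, so the values are descriptions. Myom2, an M-line protein of fast fibres, had 0.410, 0.554, 0.750 and 1.27 CPM in con/ko cKO libraries, against 3.64, 9.54 and 12.1 CPM in con/ko flox libraries. It stood at 8.50, 0.312 and 0.248 CPM in LDRG cKO libraries, against 1.26, 1.10 and 2.59 CPM in LDRG flox libraries.

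Ube2c, which encodes a ubiquitin-conjugating enzyme of dividing cells, overlaps a gene of the set. Its exons cover 592 of the 700 exon bases of Tnnc2 (84.6%), on the opposite strand of chromosome 2 (Tnnc2, chr2:164777161-164779967, minus strand). The sources used here do not say whether reads were counted by strand, so reads of these genes cannot be told apart. Ube2c had 1.28, 1.21, 0.999 and 8.42 CPM in con/ko cKO libraries, against 27.5, 37.7 and 39.4 CPM in con/ko flox libraries. Tnnc2 had 0.0891, 0, 0.0588 and 0.149 CPM in cKO libraries, against 3.94, 4.12 and 3.50 CPM in flox libraries. Ube2c counts exceeded those of Tnnc2 by 5.55 to 12.1 times in the 8 libraries with at least 31 Tnnc2 counts, and the level of Tnnc2 is therefore uncertain.

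**Figure D5:**
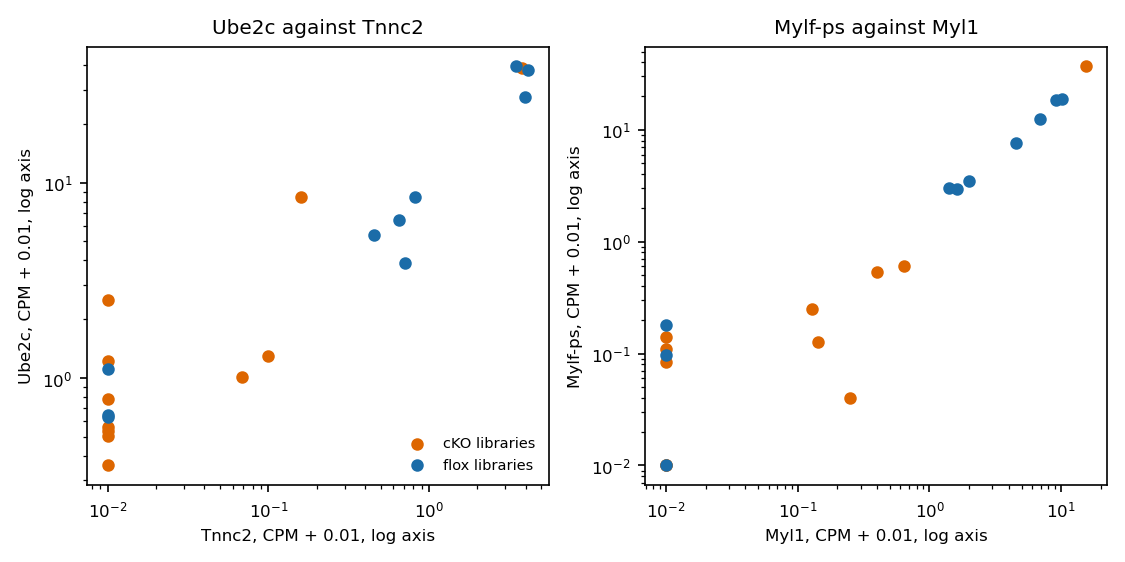
Ube2c against Tnnc2 (left) and Mylf-ps against Myl1 (right) in the 21 libraries, as CPM + 0.01 on log axes, with cKO in orange and flox in blue. Libraries high in the muscle gene are high in its partner; con/ko cKO library 7 stands above the others for Ube2c at 8.42 CPM with Tnnc2 at 0.149 CPM.

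Mylf-ps, a pseudogene, shares 18 windows of 150 bases with Myl1 (1.93% of that transcript), and no other transcript shared any with Myl1. It had 12.5, 18.9 and 18.4 CPM in con/ko flox libraries, where Myl1 had 6.90, 10.1 and 9.08 CPM. Reads of the heavy chains could also be split, with 5.43% of the 150-base windows of Myh7 shared with Myh6, 2.50% of those of Myh1 and 2.06% of those of Myh2 shared with other genes, and 0.511% of those of Myh4.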

How the data were processed

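Poly-A RNA from dorsal root ganglia was sequenced as paired reads, per the labels' protocols. Per the submitters' processing notes, the authors used fastp 0.23.2, BWA 2.2.1, SAMtools 1.14 and DESeq2 1.40.2 with the mm10 build; the counting tool is not stated in the sources at hand. The authors deposited unnormalised counts of reads for each gene, 14 libraries (CFA and LDRG) together and 7 (con/ko) apart. Genotypes were read from sample titles, since the genotype field names the Cre line for all samples.

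From the counts, CPM were computed in edgeR 4.0.16 with TMM factors over the 24381 shared genes. Tests were edgeR quasi-likelihood fits (filterByExpr, minimum count 10 and total 15, Benjamini-Hochberg adjustment, threshold 0.05) on all genes, within each name set, across sets, and for CFA against LDRG with a genotype term. They were tested on simulated data. The SE given with a log2 difference was derived as its absolute value divided by the square root of the F statistic. Alternatives were RLE, DESeq2 1.42.0, no filter, a replicate block, no genotype term, and each library left out; leaving out the 2 libraries with the most muscle counts was chosen after seeing the data. Members and lists were chosen with earlier results of these data known. Values in every library are given for 17 genes spanning the roles and fibre types; other genes are those called, up to 4 a list, and the 10 most alike by rank. A gene among these is not reported here. The further members and markers given with values were picked after their values were seen. Gene positions and exon lengths came from GENCODE on mm10. Intervals and limits at 0 counts cover counting error only.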

Additional observations from a re-analysis of the deposited data

Results flagged for a closer look

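Groups of 4 libraries were searched for a library far from the other 3. The searches covered the summed level and the 17 genes given in every library, and 21 of 52 found one. Chance alone flags about 1 in 20 single searches. The genes vary together and the sum contains them, so the searches are not independent and their number cannot be set against that rate. Of the 21, 15 were CFA flox library 1. Its summed level of 242 CPM stood apart, as did Acta1 at 24.5 CPM, Myh1 at 13.7, Myh2 at 11.7, Myh4 at 9.47, Myh7 at 1.35 and Tnnt3 at 13.2 CPM. The same library stood apart for Ckm at 10.5 CPM, Atp2a1 at 16.7, Mb at 5.61, Pgam2 at 3.41, Ttn at 14.1, Des at 4.22, Tpm2 at 15.9 and Mybpc1 at 4.11 CPM.

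CFA cKO library 1 stood apart from the other libraries labelled cKO for Myh1 at 2.10 CPM, Tnnt3 at 2.62 CPM and Atp2a1 at 4.75 CPM, and CFA cKO library 2 for Myh2 at 0.416 CPM, the others being at 0. In the con/ko cKO group, library 7 stood apart for Myh4 at 3.44 CPM and library 4 for Mybpc1 at 0.196 CPM, the others being at 0 for Mybpc1. Where the others are all at 0, any value above 0 stands apart by the rule used. Groups of 3, among them LDRG cKO with library 1 at 1030 CPM, were not searched.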

How the results depend on the processing

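Every gene of the set that was tested had the same direction between con/ko cKO and flox libraries under each alternative run, while the number called changed: 34 with DESeq2 and 12 to 21 when each library was left out (12 without cKO library 6), against 19. Over all genes, DESeq2 called 204 and leaving out libraries 19 to 37, against 40. In the LDRG set, DESeq2 called 41 genes in all, no filter 0 and leaving out libraries 3 to 11 (7 without cKO library 1 or flox library 1 or 2, 11 without flox library 3), against 3; 0 of the 38 were called, except 1 without cKO library 1, and the median ranged over -2.41 to 0.81 when libraries were left out. In the CFA set, DESeq2 called 19 genes in all and leaving out libraries 0 to 2, against 0, and the median of the 38 ranged over -0.82 to 0.17. For the difference between sets, DESeq2 called 9 of the 38 and 45 genes in all, against 0 and 1, and leaving out libraries 1 to 5 genes in all (5 without LDRG cKO library 2). For CFA against LDRG, 2 of the 38 were called with no filter, 8 with no genotype term and 3 without both muscle-rich libraries (1820 of all genes), against 5 (2900 of all genes); leaving out libraries gave 1 (without LDRG cKO library 1) to 22 (without CFA flox library 1). Without Des, Tpm2, Hspb7, Jph1, Srl and Synpo2l, the mean sum was 39.3 CPM in con/ko cKO and 40.4 CPM in CFA libraries labelled cKO. The cause of these changes was not tested.

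Replicate numbers did not pair libraries: same-numbered libraries correlated at -0.153 to 0.239 in con/ko, -0.002 to 0.092 in LDRG and -0.011 to 0.05 in CFA libraries. In con/ko, pairs with the same code letters had the higher values. Those were 0.469 for cKO library 7 and flox library 6, both ML, and 0.239 and 0.248 for the FC pairs. For cKO library 7 (ML) and flox library 4 (FC) the value was -0.479. The fits held no term for the codes, and their part in the differences was not tested. With a replicate block, 7 of the 38 and 10 genes in all were called in con/ko libraries, 0 genes in LDRG libraries with a median of the 38 of -0.99, 4 genes for the difference between sets, and 7 of the 38 and 1787 genes in all for CFA against LDRG. Genes at a few counts per library, such as Cav3 and Tnnc2, are limited by depth.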
